A study of Mus musculus with 9 samples.

Results

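IMOK is a line of immortalised mouse oral keratinocytes, and its RNA was sequenced as 3 libraries that the labels number as replicates. Replicate 1 is compared here with replicates 2 and 3, that is 1 library with 2 out of 9 in the series. The contrast was chosen by the gene counts themselves, since earlier results of the same counts had shown replicate 1 to stand apart. The values that chose it are therefore the ones described, every difference between replicate 1 and the other replicates is a description of these libraries, and no p-value is given for it. All 3 IMOK libraries carry the strain label C57BL/6, the growth condition IMOK media and the passage label Early, and they were made with the same TruSeq kit from total RNA. The labels tell them apart by number alone, so it is not known whether they came from separate cultures, and nothing in the labels assigns replicate 1 another treatment. The extraction note of every library, those of IMOK included, speaks of submandibular gland cells. The other 6 libraries are of mSGc, a submandibular gland epithelial line of a male C57BL/6 mouse, with 1 library each at P2, P4, P10 and P25 in progenitor medium (SFM) and at P10 and P25 in differentiating medium (SCM). They serve below only as levels from another line.

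Replicates 1, 2 and 3 held 18444963, 18073866 and 16848411 counted reads, so depth was similar, and 3 counts, the limit that a count of 0 allows, corresponded to 0.163 to 0.178 CPM (counts scaled to library total) in a library. Genes at 1 TPM or more (the unit TPM is a count corrected for gene length and library total) numbered 12493, 11834 and 11548 in the same order. The 10 most abundant genes held 4.77%, 4.53% and 4.18% of the counts. Of 73 ribosomal protein genes, 0 were at least 2-fold higher and 2 at least 2-fold lower in replicate 1, with a median log2 difference of -0.12.

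Keratinocytes of stratified epithelium build their cytoskeleton from paired keratins and sit on a laminin-rich basement membrane. In culture such cells can also switch on actin-based contractile genes and interstitial matrix genes, which are better known from smooth muscle, myoepithelium and fibroblasts and which respond to serum response factor, TGF-beta and the mechanosensitive factors YAP and TAZ. Interferon-stimulated genes form a separate antiviral programme under STAT and IRF factors, and the S phase genes are switched on together by E2F factors when a cell commits to DNA replication.

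A gene was called higher, or lower, when its TMM-scaled log2(CPM + 0.5) in replicate 1 differed by at least 2-fold in the same direction from replicate 2 and from replicate 3, among the 12129 genes whose mean over the 3 libraries reached 1 CPM. By this rule 1234 genes (10.2%) were higher and 1012 (8.34%) lower in replicate 1, and 9883 were neither. Replicates 2 and 3 differed by 2-fold or more at 237 genes (1.95%). The median absolute log2 difference was 0.52 between replicate 1 and the mean of the others and 0.19 between replicates 2 and 3, whose 95th percentile was 0.74. The median distance of replicate 1 from the other replicates was thus larger than their distance from each other. At 4-fold, 424 genes were higher and 196 lower.

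The balance of directions depended on scaling. Higher calls made up 54.9% of all calls, 68.6% with plain library sizes, 71.7% on the TPM scale and 45.9% among genes whose mean reached 5 CPM. The median log2 difference of all tested genes was -0.03 with TMM, 0.18 with library sizes and 0.21 on the TPM scale, an offset that the TPM values printed below carry. Genes that passed the filter through replicate 1 alone had to differ, and 309 of the higher genes had less than 1 CPM in both other replicates, while 148 of the lower genes had less than 1 CPM in replicate 1. At the edge of the rule, *Irak2* (14.2, 4.64 and 5.62 TPM in replicates 1, 2 and 3) was just inside the higher calls and *Fcho1* (3.69, 1.43 and 0.477 TPM) just outside. *Diap3* (14.3, 24.7 and 31.1 TPM) was just inside the lower calls and *Psapl1* (5.16, 12.9 and 8.77 TPM) just outside.

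**Figure D1:**
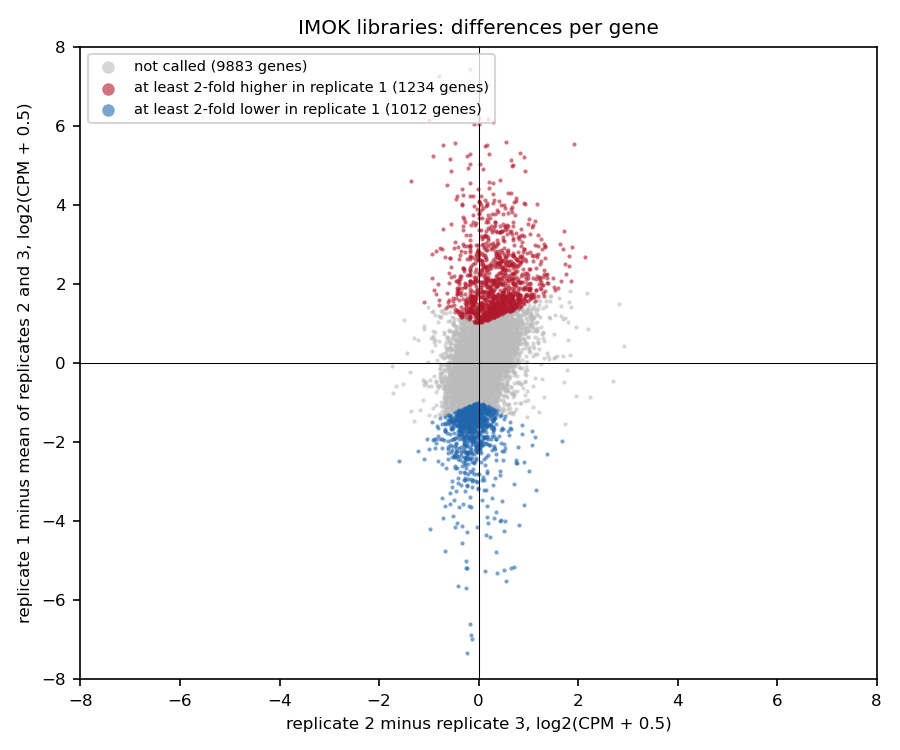
Each point is 1 of 12129 tested genes, with the log2(CPM + 0.5) difference between replicates 2 and 3 on the x axis and between replicate 1 and their mean on the y axis. Both axes have the same range, and the cloud is taller than wide: the 1234 higher genes (red) and 1012 lower genes (blue) reach farther from 0 than the 237 genes that differ 2-fold between replicates 2 and 3.

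All 3 libraries carried the markers of keratinocytes. *Krt5*, the basal type II keratin, was at 4400, 5150 and 4280 TPM in replicates 1, 2 and 3. Its partner *Krt14* was at 3260, 3150 and 3320 TPM. *Trp63*, the master factor of stratified epithelium, was at 149, 101 and 72.4 TPM and the adherens junction gene *Cdh1* at 315, 258 and 283 TPM. None of these 4 genes was called. Over 8 keratinocyte markers, all of which passed the filter and 1 of which was higher, the summed level was 9320, 9960 and 9440 TPM, and over a wider list of 32 basal keratinocyte genes 2 of the 31 that passed the filter (6.45%) were higher and 1 (3.23%) was lower, under the shares of all tested genes, and the median log2 difference was -0.04, a sign that turned to 0.18 with library sizes. The higher genes were *Itgb4*, the hemidesmosome integrin (248, 98.7 and 96.7 TPM), and *Egfr*, the EGF receptor (38, 11.4 and 10.4 TPM). The lower one was *Krt15*, a keratin of basal progenitors, at 2.66, 19.5 and 5.37 TPM.

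Markers of IMOK and of mSGc were listed with earlier results of these data known, so their levels describe the libraries and do not test identity. The 7 markers of mSGc, 4 of them genes of the Y chromosome, summed to 0.109, 0.173 and 0.0846 TPM in the 3 IMOK replicates, against 110 to 208 TPM in mSGc. *Cldn6*, an embryonic epithelial claudin, was at 500, 461 and 578 TPM and *Tbx1*, a pharyngeal T-box factor, at 46.8, 33.4 and 33.6 TPM, with no call for either. *Gxylt2*, a xylosyltransferase gene, was higher in replicate 1 (60.7, 12.3 and 16 TPM), and the homeobox gene *Hmx1* was lower (9.34, 26.9 and 21.3 TPM). The summed level of the 5 IMOK markers was 703, 694 and 768 TPM, most of it *Cldn6*.

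**Figure D2:**
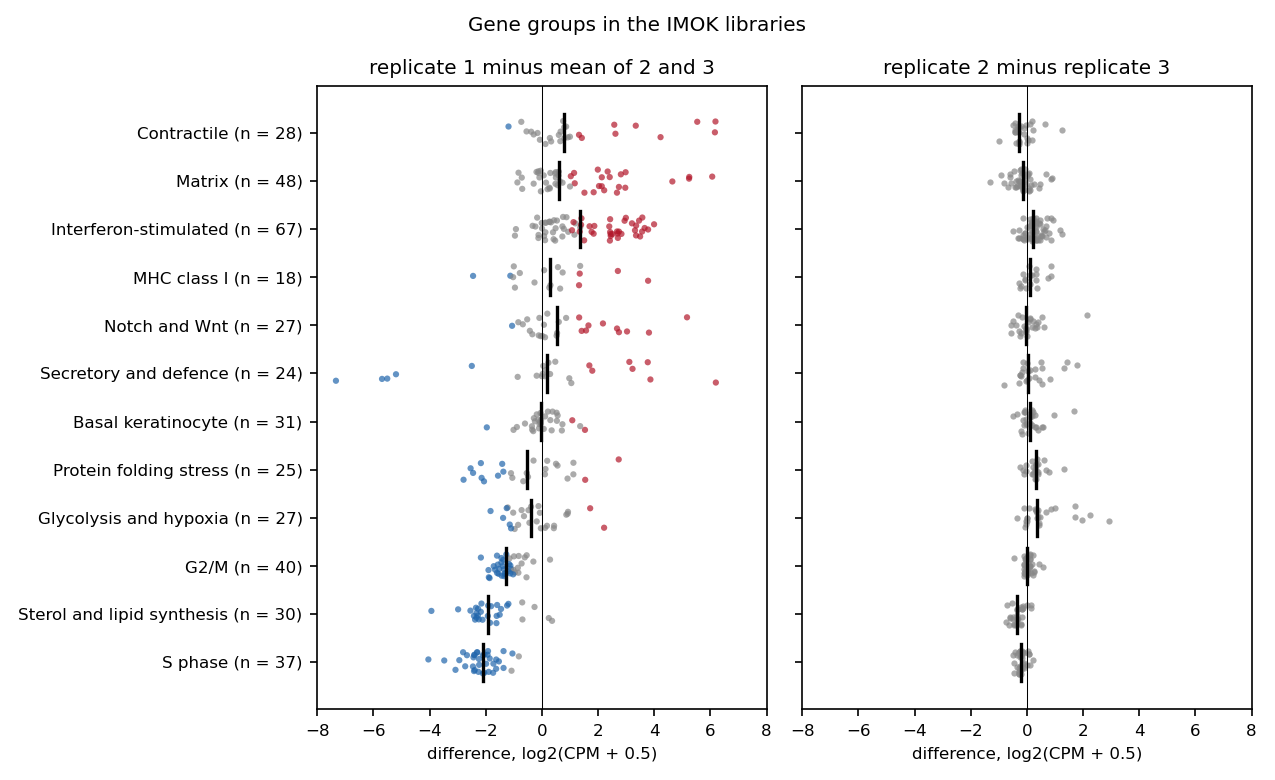
Points are the genes of 12 lists that passed the filter, placed by their log2(CPM + 0.5) difference between replicate 1 and the mean of replicates 2 and 3 (left) and between replicates 2 and 3 (right), and black bars are medians. Red and blue points on the left were called higher and lower. Medians on the left run from 1.35 for interferon-stimulated genes to -2.10 for S phase genes. On the right, median absolute differences run from 0.10 for G2/M genes to 0.37 for glycolysis and hypoxia genes. The smaller medians on the left lie within that range.

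Contractile genes included several that were far higher in replicate 1. Of 34 listed genes 28 passed the filter, 9 of them (32.1%) were higher in replicate 1 and 1 was lower, beside 10.2% and 8.34% of all tested genes, and the median log2 difference was 0.77. *Acta2* (chromosome 19, 34314826 to 34329863 of mm9), which encodes smooth muscle alpha-actin, was at 880, 7.08 and 13.8 TPM in replicates 1, 2 and 3, the order used throughout. This is a 71.4-fold difference between replicate 1 and the other replicates pooled, with a 95% exact binomial interval of 64.9 to 78.6 that covers counting error only. The level in replicate 1 exceeded that of mSGc at P2, 544 TPM, the highest of that line. *Tagln*, the actin-binding transgelin of smooth muscle, was at 69.3, 0.731 and 0.551 TPM. *Tgfb1i1*, which encodes the focal adhesion protein HIC-5, was at 53.7, 0.345 and 0.247 TPM, and *Myl9*, the smooth muscle myosin light chain, at 25.7, 0.107 and 0.461 TPM. All 3 were close to 0 in both other replicates. Like *Lmod1* below, they had under 1 CPM there and passed the filter through replicate 1, which favours a higher call. The share of higher genes is therefore not separate support. Among genes whose mean reached 5 CPM, 7 contractile genes were higher and 1 lower.

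Abundant cytoskeletal genes differed less. *Myh9*, the non-muscle myosin heavy chain, was at 559, 166 and 210 TPM, a 2.5-fold difference (2.45 to 2.54). *Csrp1*, a LIM domain protein of actin bundles, was at 362, 115 and 110 TPM. Both were far from 0 in every replicate. Myosin light chain kinase *Mylk* (11, 2.35 and 0.863 TPM), the actin nucleator *Lmod1* (3.54, 0.147 and 0 TPM) and *Synpo2* (7.19, 0.880 and 0.841 TPM) completed the higher genes. The caldesmon gene *Cald1*, at 575, 219 and 263 TPM, was not called, since replicate 1 was less than 2-fold above replicate 3. Beta-tropomyosin, *Tpm2*, went the other way at 65.9, 125 and 127 TPM, a lower call that was lost with library sizes and on the TPM scale.

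The list thus did not differ as a block, and the genes that define mature smooth muscle were low in every replicate. *Myh11*, the smooth muscle myosin heavy chain, was at 0.0531, 0.0525 and 0.0564 TPM. *Myocd*, the coactivator of the smooth muscle programme, was at 0.0459 TPM in replicate 1 and 0 in the others. Other markers were low but highest in replicate 1: *Actg2* (2.41, 0 and 0.0949 TPM), *Des* (1.26, 0.108 and 0.058 TPM) and *Cnn1* (0.945, 0 and 0.188 TPM). None of these passed the filter. Over 7 smooth muscle markers, of which *Lmod1* and *Synpo2* passed the filter and were higher, the summed level was 15.4 TPM in replicate 1 and 1.19 and 1.24 TPM in replicates 2 and 3. Of 7 skeletal muscle markers 1 passed and was higher, the skeletal actin gene *Acta1* (7.69, 0.295 and 0.715 TPM), and *Myod1* and *Myog* were at 0 in all 3. The part of such cells in the contractile difference was not tested. Because the RNA came from bulk cultures, a difference in the share of cells of a kind and one in RNA per cell cannot be told apart, here and in what follows.

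A CArG box, the site bound by serum response factor, was read strictly as CCWWWWWWGG, where W is A or T. It was searched on both strands of RefSeq promoter windows of GRCm38.p6, each running from 250 bases before to 50 bases after an annotated start. It was found for 5 of the 26 contractile genes with a window (19.2%), against 1.81% of 27025 genes. Those 5 were *Cnn2*, *Myl6*, *Myl9*, *Srf* and *Vcl*, and of them *Myl9* alone was higher in replicate 1. Of the 9 higher genes 7 had a window and 1 of these had the box (14.3%), against 4 of 15 uncalled genes (26.7%). The letters thus did not sort called from uncalled members with a window. Sites outside the windows or with other letters were not searched. *Srf* itself was at 72.6, 30.1 and 40.2 TPM and was not called. The *Myl9* window (chr2:156775214-156775513, plus strand) is shown because that gene went from near 0 to 25.7 TPM, with its box in capitals.
Myl9: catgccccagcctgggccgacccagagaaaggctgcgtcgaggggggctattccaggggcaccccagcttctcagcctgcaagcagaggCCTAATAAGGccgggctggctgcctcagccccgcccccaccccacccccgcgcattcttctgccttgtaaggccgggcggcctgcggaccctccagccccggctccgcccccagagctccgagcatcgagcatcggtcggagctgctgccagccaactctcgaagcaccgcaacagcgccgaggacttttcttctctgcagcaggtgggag

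Matrix genes leaned the same way. Of 62 listed genes 48 passed the filter, 21 (43.8%) were higher in replicate 1 and 0 were lower, beside 10.2% and 8.34% of all tested genes, and the median log2 difference was 0.62. Fibronectin, *Fn1*, the most abundant of the higher genes, was at 873, 142 and 237 TPM. *Timp3*, an inhibitor of metalloproteinases that binds to matrix, was at 232, 33.3 and 39.3 TPM, and *Col12a1*, a fibril-associated collagen, at 183, 31.3 and 44.6 TPM. Each of the 3 was present in all IMOK libraries and highest in replicate 1.

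A second set went from almost nothing to clear expression. Lysyl oxidase, *Lox*, which cross-links collagen and elastin, was at 39.6, 0.547 and 0.658 TPM. *Postn*, the matricellular protein periostin, was at 31.3, 0.211 and 0.644 TPM and fibrillin-1, *Fbn1*, at 15.8, 0.0937 and 0.101 TPM. These were among the 20 largest higher differences of called genes with at least 10 TPM in replicate 1. The related oxidases *Loxl1* (7.63, 0.764 and 0.635 TPM), *Loxl2* (16.8, 1.70 and 1.97 TPM) and *Loxl3* (9.59, 1.20 and 0.524 TPM) were higher too. The higher genes *Fbn1*, *Col1a1*, *Col5a2*, *Col6a1*, *Col6a2* and *Eln* had under 1 CPM in both other replicates. They passed the filter through replicate 1, which favours a higher call. Among genes whose mean reached 5 CPM, 15 matrix genes were higher and 0 lower.

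Fibrillar collagens stayed low. *Col1a1* was called higher at 5.25, 0.395 and 0.345 TPM and *Col5a1* at 11.9, 0.359 and 0.223 TPM. *Col1a2*, whose chain pairs with that of *Col1a1* in type I collagen, was at 0.684, 0.180 and 0.267 TPM, and *Col3a1* at 0.0422, 0.0834 and 0.135 TPM. The higher matrix genes did not include those 2, and neither passed the filter. Decorin (*Dcn*), lumican (*Lum*) and *Thy1*, which mark fibroblasts, were at 0 in replicate 1, and over 10 fibroblast markers, of which 3 passed, 1 was higher and 1 lower, the summed level was 7.43, 4.70 and 6.01 TPM.

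Basement membrane genes were strongly expressed in every library and split between called and uncalled. *Lamb1* (252, 68.8 and 78.7 TPM), *Lamb3* of laminin-332 (457, 191 and 183 TPM) and *Lama5* (163, 63.6 and 57.6 TPM) were higher in replicate 1. *Lama3*, the alpha chain of laminin-332, was at 62.8, 31.2 and 40.6 TPM and was not called. Collagen IV was uncalled as well, with *Col4a1* at 239, 139 and 144 TPM. The protease *Mmp2* was higher (18.2, 2.82 and 3.20 TPM), while *Timp1*, *Timp2* and *Plau* were not called.

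Among targets of TGF-beta, YAP and TAZ, 37 of 40 listed genes passed, 8 (21.6%) were higher and 3 (8.11%) lower in replicate 1, the latter close to the 8.34% of all tested genes lower and the former above the 10.2% higher. The median log2 difference was 0.22, and it was 0.06 without replicate 2 and 0.37 without replicate 3. *Ctgf*, a matricellular growth factor, was at 443, 84.0 and 145 TPM, and *Ankrd1*, a cofactor of muscle and injury responses, at 89.6, 1.38 and 4.24 TPM. *Cyr61*, the close relative of *Ctgf*, was at 269, 64.6 and 173 TPM and was not called, since replicate 3 lay near replicate 1. Among ligands *Tgfb3* was higher (38.1, 9.01 and 6.34 TPM) and the activin subunit gene *Inhba* lower (1.61, 16.2 and 26.2 TPM). The beta-3 integrin gene *Itgb3* was at 20.9, 0.421 and 0.151 TPM and the intermediate filament gene *Vim* at 456, 145 and 136 TPM, both higher. *S100a4*, a calcium-binding protein often used as a mesenchymal marker, was lower at 4.94, 119 and 77.5 TPM, and so was *Twist2* (0.358, 3.36 and 4.66 TPM). *Zeb1* was at or below 0.0404 TPM in every replicate.

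Interferon-stimulated genes made up the list with the largest median above 0 among those with more than 2 members tested. Of 79 listed genes, 78 were found and 67 passed, 35 (52.2%) were higher in replicate 1 and 0 lower, beside 10.2% and 8.34% of all tested genes, and the median log2 difference was 1.35 (0.94 among genes whose mean reached 5 CPM, where 22 were higher). *Isg15*, a ubiquitin-like modifier, was at 54.3, 5.37 and 5.12 TPM in replicates 1, 2 and 3. *Ifit1*, which binds viral RNA, was at 23, 1.93 and 0.993 TPM, and *Oas1a*, which makes the messenger that activates RNase L, at 12.1, 0.491 and 0.264 TPM. In each case replicate 1 stood far above both of the others. Of the 9 listed OAS and MX genes, 8 were higher, and *Mx1* (1.5, 0.0780 and 0 TPM) did not pass the filter. Apart from *Oas3* (15.3, 1.03 and 0.74 TPM), those 8 had under 1 CPM in both other replicates. They passed the filter through replicate 1, which favours a higher call, so their count is not separate support.

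The factors that drive the programme were among the higher genes. *Irf7*, which amplifies interferon production, was at 36.9, 6.92 and 2.62 TPM, and *Irf9*, the DNA-binding partner of STAT factors, at 47.4, 5.74 and 6.03 TPM. *Stat2*, whose product binds IRF9, was at 21.5, 18.4 and 15.8 TPM and was not called. Neither was *Irf1* (37.8, 33.2 and 29.8 TPM), itself a factor of the family. *Psmb8*, a catalytic subunit of the immunoproteasome, was at 62.5, 3.60 and 2.55 TPM, a 16.9-fold difference (13.0 to 22.2).

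Within the list, several genes at sizeable levels in all 3 replicates were not called. *Ifitm3*, which blocks viral entry, was at 1550, 1420 and 1190 TPM, *Ifi204* at 76.1, 70.0 and 73.1 TPM, *Ifit2* at 26.1, 27.3 and 20.8 TPM and *Isg20* at 37.1, 36.0 and 31.7 TPM. The RNA sensor genes *Ddx58* (30.4, 26.1 and 21.1 TPM) and *Ifih1* (4.93, 4.12 and 2.31 TPM) were uncalled also. Their relative *Dhx58* was higher (15.5, 1.15 and 0.672 TPM), as was *Usp18*, which removes ISG15 and damps the receptor (55.4, 14.7 and 11.8 TPM). Members therefore differed unevenly, with 32 uncalled beside the 35 higher.

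Interferons were at or near 0. Of 27 listed genes of interferon signalling 24 were found and 18 passed, 1 (5.56%) was higher and 1 (5.56%) lower, both under the shares of all tested genes, and the median log2 difference was 0.34. *Ifnb1* had 0.152 TPM in replicate 1 and 0 in the others, and *Ifng*, *Ifna1*, *Ifnk* and *Ifne* had 0 in all 3. The receptor genes *Ifnar1* (32.4, 23.2 and 19.5 TPM) and *Ifngr1* (21.5, 23.2 and 24.4 TPM) were not called. The higher gene was *Tmem173*, which encodes the adaptor STING, at 12.1, 1.16 and 0.325 TPM, and the lower one *Mb21d1*, which encodes the DNA sensor cGAS, at 0.557, 11.2 and 13.4 TPM.

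Markers of other cell types were low. The leukocyte genes *Ptprc* and *Cd3e* were at 0 in replicate 1. Of 8 leukocyte markers 1 passed, the lysosomal gene *Cd68* (33.4, 8.74 and 4.58 TPM), which was higher, and it made up nearly the whole summed level of 34.0, 9.01 and 4.99 TPM. The 6 endothelial markers summed to 0.630, 0.657 and 0.364 TPM with *Emcn* and *Tie1* at 0 in all 3, 6 melanocyte markers to 2.81, 1.99 and 2.06 TPM with *Dct* and *Tyrp1* at 0, and 6 Schwann cell and neural markers to 3.38, 5.40 and 8.67 TPM with *Sox10* at 0. Their part in the interferon difference was not tested.

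Of 21 listed genes of the MHC class I pathway 18 passed, 4 (22.2%) were higher and 2 (11.1%) lower in replicate 1, beside 10.2% and 8.34% of all tested genes, and the median log2 difference was 0.28. The immunoproteasome genes *Psmb8* and *Psmb9* (25, 3.45 and 1.24 TPM), the peptide transporter gene *Tap2* (32.7, 12.1 and 9.07 TPM) and the non-classical *H2-M3* (19.0, 6.92 and 5.08 TPM) were higher. The heavy chain *H2-K1* (272, 215 and 215 TPM) and the light chain *B2m* (1030, 520 and 581 TPM) were not called. The 2 lower genes, *Calr* (394, 2090 and 1550 TPM) and *Pdia3* (560, 1090 and 957 TPM), encode general chaperones of the endoplasmic reticulum. H2 genes have near-identical copies, so their counts are uncertain.

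The core of the interferon-stimulated response element, read as GAAA, any 2 bases and GAAA again, was searched in the same promoter windows on both strands. It was present in 25 of the 57 listed genes with a window (43.9%), against 3.99% of all 27025 genes. Among genes higher in replicate 1 it was in 11 of 24 (45.8%) and among uncalled genes that passed the filter in 13 of 28 (46.4%), so the share hardly differed between called and uncalled members. The windows of *Isg15* (chr4:156200769-156201068, minus strand), *Ifit1* (chr19:34640639-34640938, plus strand) and *Oas1a* (chr5:120907476-120907775, minus strand) are shown because these genes are described above as clearly higher in replicate 1, with the core in capitals and overlapping matches merged.
Isg15: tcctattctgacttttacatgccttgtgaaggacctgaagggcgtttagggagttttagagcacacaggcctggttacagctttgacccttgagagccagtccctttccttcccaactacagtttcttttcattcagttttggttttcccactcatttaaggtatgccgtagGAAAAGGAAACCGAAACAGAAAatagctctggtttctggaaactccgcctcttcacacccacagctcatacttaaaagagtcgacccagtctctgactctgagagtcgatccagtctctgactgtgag
Ifit1: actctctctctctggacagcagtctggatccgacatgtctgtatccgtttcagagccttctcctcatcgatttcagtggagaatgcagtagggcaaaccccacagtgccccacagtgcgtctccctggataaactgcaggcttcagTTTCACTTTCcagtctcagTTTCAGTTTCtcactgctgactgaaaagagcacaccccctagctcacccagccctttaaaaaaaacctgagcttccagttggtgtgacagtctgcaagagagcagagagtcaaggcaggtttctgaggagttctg
Oas1a: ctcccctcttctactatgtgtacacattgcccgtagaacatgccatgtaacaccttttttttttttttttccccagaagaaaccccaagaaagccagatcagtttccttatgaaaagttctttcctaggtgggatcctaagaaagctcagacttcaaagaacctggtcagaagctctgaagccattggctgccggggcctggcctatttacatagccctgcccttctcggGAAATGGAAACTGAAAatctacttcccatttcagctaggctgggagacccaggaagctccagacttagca

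Secreted defence proteins were split. Of 59 listed secretory and defence genes 58 were found and 24 passed, 7 (29.2%) were higher and 5 (20.8%) lower in replicate 1, beside 10.2% and 8.34% of all tested genes. The median log2 difference was 0.18, and it was 0.42 without replicate 2. *Lcn2* (chromosome 2, 32240157 to 32243259 of mm9), the siderophore-binding lipocalin 2, was at 101 TPM in replicate 1 and without counts in replicates 2 and 3, which makes it at least 187-fold higher against a floor of 3 counts per library. All mSGc libraries expressed it, at 6.72 to 334 TPM. The protease inhibitor *Slpi* was at 46.2, 2.38 and 1.28 TPM, clusterin, *Clu*, at 144, 34.8 and 33.8 TPM, and the whey acidic protein relative *Wfdc18* at 27.2, 0.853 and 1.15 TPM. Lactoferrin, *Ltf* (4.37, 0.0846 and 0.0455 TPM), ceruloplasmin, *Cp* (4.08, 0.0926 and 0.0796 TPM), and the membrane mucin *Muc1* (2.36, 0.571 and 0.112 TPM) were higher at low levels. *Wfdc2*, the most abundant member, was not called (872, 636 and 602 TPM). *Lcn2*, *Wfdc18*, *Ltf*, *Cp* and *Muc1* had under 1 CPM in both other replicates. They passed the filter through replicate 1, which favours a higher call, so the share of higher genes is not separate support. Among genes whose mean reached 5 CPM, 3 were higher and 4 lower.

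Of the 5 lower genes, 4 encode products of salivary and related exocrine glands. *Bpifa2* (chromosome 2, 153834012 to 153841809), parotid secretory protein, had no counts in replicate 1 and was at 158 TPM in replicate 2 and 175 in replicate 3, at least 504-fold lower. *Smr3a*, a submandibular prohormone, was at 0, 71.7 and 81.3 TPM, and *Prol1*, a proline-rich secreted protein, at 0, 47.4 and 30.5 TPM. Salivary amylase, *Amy1*, was at 0.129, 22.1 and 24.9 TPM and the whey acidic protein relative *Wfdc12* at 0.486, 9.12 and 8.26 TPM. These genes were close to absent in replicate 1 and well above the floor in both others. They passed the filter through replicates 2 and 3, which favours a lower call.

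The same held for further gland genes that were not on the list and came up among the largest lower differences. *Car6*, the carbonic anhydrase of saliva, was at 0.257, 42.7 and 28.2 TPM. The secretoglobin genes *Scgb1b27* (0, 113 and 64.7 TPM) and *Scgb2b27* (0, 37.3 and 27.3 TPM), prolactin-induced protein, *Pip* (0, 39.2 and 31.5 TPM), and the chitinase gene *Chia* (0, 11.3 and 12.7 TPM) had no counts in replicate 1. The factor *Bhlha15*, which marks mature secretory acinar cells, was at 0.101, 0.0996 and 0.179 TPM and was under 1 TPM in every replicate. The water channel gene *Aqp5*, also a marker of acinar cells, was at 213, 111 and 72.9 TPM, highest in replicate 1 and not called. Over the acinar markers, of which 7 of 8 were found, 6 passed and 5 were lower, the summed level was 213, 418 and 391 TPM, and *Aqp5* made up nearly all of it in replicate 1.

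In mSGc, the library at P4 had the highest level of most of these genes, *Amy1* being an exception (3.06 TPM at P4, 3.38 at P10 in SCM). *Scgb1b27* was at 173 TPM at P4 and at most 0.773 TPM in the other mSGc libraries, *Prol1* at 60.0 TPM against at most 0.101, and *Bpifa2* at 15.8 TPM against 0. A count made after these values were seen took the 48 genes with at most 3 counts in replicate 1 and at least 30 in each of the others. For 14 of them (29.2%) the P4 level was at least 2-fold above every other mSGc library, as it was for 33 (0.272%) of all tested genes. The 14 include the kallikrein genes *Klk1b9* (0, 9.33 and 8.89 TPM, 38.1 at P4), *Klk1b4* and *Klk1b16*, which are near-identical copies and therefore uncertain one by one. *Crisp3*, another of the 48, is not among them (0, 8.95 and 7.47 TPM, 37.5 at P4, 49.3 at P10 in SCM). Whether the cells of each culture made these transcripts, or RNA of another source reached IMOK replicates 2 and 3 and the P4 library during preparation, was not tested, so the printed levels may not be those of the cells.

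**Figure D3:**
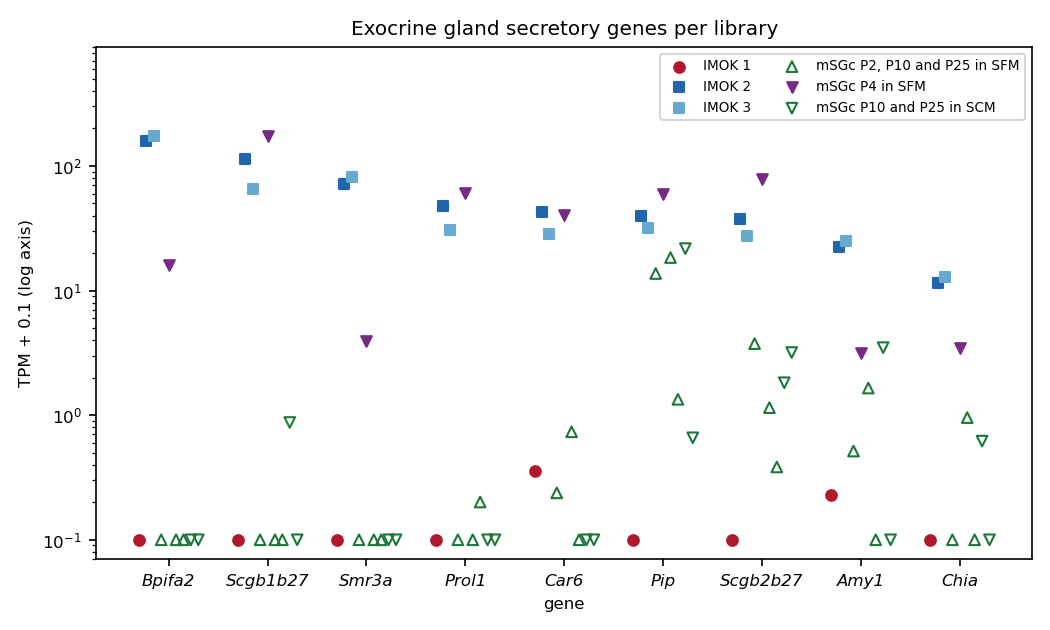
The y axis gives TPM + 0.1 on a log scale for 9 exocrine gland genes in each of the 9 libraries, with points at 0.1 having no counts. IMOK replicate 1 (red circles) lies at or near the bottom for every gene, while replicates 2 and 3 (blue squares) lie between 11.3 and 175 TPM and the mSGc library at P4 (purple) between 3.06 and 173 TPM.

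Genes of DNA replication were lower almost without exception. Of 37 S phase genes all passed, 35 (94.6%) were lower in replicate 1 and 0 higher, beside 8.34% and 10.2% of all tested genes, and the median log2 difference was -2.10, against a median absolute difference of 0.22 between replicates 2 and 3. *Mcm5*, a subunit of the replicative helicase, was at 36.8, 158 and 182 TPM. *Rrm2*, the regulated subunit of ribonucleotide reductase, was at 35.9, 222 and 245 TPM. *Cdc6*, which loads the helicase, was at 2.02, 18.0 and 24.3 TPM and cyclin E2, *Ccne2*, at 0.365, 8.65 and 11.1 TPM. The 6 MCM2-7 genes were all lower, with 27.3 to 88.0 TPM in replicate 1 and at least 126 TPM in the others. Among the uncalled was *E2f1* (19.7, 28.6 and 30.1 TPM), the factor that drives many of the others.

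G2/M genes differed less. Of 40 all passed, 27 (67.5%) were lower and 0 higher, beside 8.34% and 10.2% of all tested genes, with a median log2 difference of -1.29, and at 4-fold 1 was lower, against 18 of the S phase genes. *Cdk1*, the mitotic kinase, was at 75.8, 238 and 237 TPM and the proliferation marker *Mki67* at 57.9, 126 and 108 TPM. *Aurka*, the centrosomal kinase, was at 95.4, 97.6 and 99.3 TPM and *Cdc20*, which activates the anaphase ubiquitin ligase, at 94.2, 123 and 108 TPM, both uncalled. *Plk1*, the polo kinase (67.2, 118 and 102 TPM), and the kinetochore gene *Cenpf* (33.5, 62.4 and 51.5 TPM) were among the 13 uncalled as well.

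Of 25 listed cycle control genes 24 passed, 5 (20.8%) were higher and 1 (4.17%) lower, beside 10.2% and 8.34% of all tested genes, and the median log2 difference was -0.12, which turned to 0.09 with library sizes. The INK4 inhibitor *Cdkn2b* was higher (211, 80.0 and 68.1 TPM), as were *Cdkn1c* (4.53, 1.67 and 0.835 TPM), *Gadd45a* (67.2, 20.6 and 14.0 TPM), the antiproliferative gene *Btg2* (27.9, 9.44 and 6.27 TPM) and *Mycn* (3.53, 0.536 and 1.15 TPM). The lower gene was *Rbl1*, an RB relative that is itself a target of E2F (12.4, 44.0 and 41.4 TPM). *Cdkn2a*, the neighbour of *Cdkn2b*, was at 423, 204 and 180 TPM and was not called, nor was *Cdkn1a* (49.1, 46.8 and 25.1 TPM). Cyclin D1, *Ccnd1*, was at 464, 397 and 448 TPM. Replication-dependent histone genes could not be followed, since 2 of 26 passed the filter (1 higher, *Hist1h1c*, at 34.0, 5.28 and 3.60 TPM).

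The E2F letters TTTCCCGC and TTTGGCGC, searched in the same windows on both strands, were found in 8 of 29 S phase genes with a window (27.6%), against 1.80% of all genes and 3.60% of the 9062 tested genes with a window. They were in 0 of 33 G2/M genes, of which 22 were lower in replicate 1. The 8 genes were *Cdc6*, *Cdt1*, *Dtl*, *Mcm3*, *Mcm5*, *Mcm6*, *Mcm7* and *Pola1*, and all were lower in replicate 1. Since 28 of the 29 were lower, the letters could not sort lower from uncalled S phase genes. Over all lower genes, these 8 included, the share was 52 of 760 (6.84%), and over all higher genes 22 of 878 (2.51%). The *Mcm5* window (chr8:75109259-75109558, plus strand) is given as an example, with the match, which lies on the opposite strand, in capitals.
Mcm5: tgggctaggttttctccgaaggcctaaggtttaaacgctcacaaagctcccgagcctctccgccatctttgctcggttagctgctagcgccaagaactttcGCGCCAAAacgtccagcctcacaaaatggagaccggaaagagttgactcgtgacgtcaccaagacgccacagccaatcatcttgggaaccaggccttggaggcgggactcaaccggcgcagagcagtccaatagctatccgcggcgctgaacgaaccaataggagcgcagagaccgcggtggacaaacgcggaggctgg

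Sterol and fatty acid synthesis genes were lower nearly throughout. Of 31 listed genes 30 passed (1 was listed at 0), 25 (83.3%) were lower in replicate 1 and 0 higher, beside 8.34% and 10.2% of all tested genes, and the median log2 difference was -1.92. *Idi1*, which makes dimethylallyl diphosphate, was at 34.0, 353 and 546 TPM, a 15.7-fold difference (14.6 to 16.8). Farnesyl diphosphate synthase, *Fdps*, was at 178, 713 and 783 TPM and fatty acid synthase, *Fasn*, at 60.8, 176 and 190 TPM. In all of these replicate 1 lay below both others. The transcription factor genes *Srebf1* (138, 150 and 128 TPM) and *Srebf2* (134, 186 and 178 TPM) were uncalled, as were the desaturase genes *Fads1* (599, 453 and 393 TPM) and *Fads2* (564, 738 and 794 TPM).

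Several chaperones of the endoplasmic reticulum were lower. Of 25 listed genes of protein folding and its stress response all passed, 9 (36.0%) were lower, beside 8.34% of all tested genes, and 2 (8.0%) higher, under the 10.2% of all, with a median log2 difference of -0.54. *Hspa5*, the lumenal HSP70 chaperone, was at 418, 1620 and 1310 TPM, *Hsp90b1* at 517, 2190 and 1670 TPM, and *Manf* at 49.4, 313 and 265 TPM. *Pdia4*, *Creld2*, *Sdf2l1*, *Edem1*, *Calr* and the serine synthesis gene *Psat1* (169, 371 and 361 TPM) were the other lower genes. *Trib3*, a pseudokinase gene that ATF4 induces, was higher (233, 37.8 and 22 TPM), and so was *Slc3a2*, the heavy chain of amino acid transporters (995, 328 and 248 TPM). *Atf4* (340, 264 and 255 TPM) and *Ddit3* (161, 72.7 and 51.7 TPM) were uncalled.

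Wnt genes accounted for most of the higher genes in a joint Notch and Wnt list. Of 39 listed genes 27 passed, 10 (37.0%) were higher and 1 (3.7%) lower in replicate 1, beside 10.2% and 8.34% of all tested genes. The median log2 difference was 0.52, and it fell to 0.26 without replicate 3, 0.32 with a pseudocount of 2 and 0.11 among genes whose mean reached 5 CPM. *Lgr6*, an R-spondin receptor of epithelial progenitors, was at 36.9, 0.448 and 0.758 TPM. The ligand gene *Wnt5a* was at 10.3, 0.504 and 0.314 TPM, *Wnt6* at 4.65, 0.112 and 0 TPM and *Dkk3*, a secreted Dickkopf relative, at 114, 16.3 and 12.0 TPM. The nuclear effectors *Lef1* (6.46, 0.786 and 1.22 TPM), *Tcf7l1* (36.6, 14.0 and 9.05 TPM) and *Tcf7l2* (8.51, 2.09 and 2.41 TPM) were higher, and *Wnt10a* was lower (30.7, 54.8 and 53.3 TPM). *Axin2*, a common readout of the canonical pathway, was at 0.110, 0.572 and 0.234 TPM and did not pass the filter. Of the Notch genes *Notch3* was higher (13.0, 3.56 and 0.675 TPM), while *Notch1*, *Notch2*, *Jag1* and *Hes1* were uncalled.

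Of 41 listed growth factor genes 36 passed, 10 (27.8%) were higher and 6 (16.7%) lower, beside 10.2% and 8.34% of all tested genes, and the median log2 difference was 0.30. The receptor gene *Fgfr1* was at 104, 18.6 and 11.2 TPM, and *Fgf7*, a ligand usually made by mesenchyme and read by *Fgfr2*, at 41.4, 3.13 and 2.43 TPM. The ERK feedback genes *Spry1* (168, 64.2 and 48.3 TPM), *Spry2* (46.4, 17.1 and 11.5 TPM) and *Dusp4* (67.7, 7.74 and 9.77 TPM) were higher too. *Igfbp5*, an IGF-binding protein, was at 97.0, 0.238 and 0.511 TPM, a 219-fold difference (158 to 313), whereas its relative *Igfbp3* was lower at 147, 814 and 845 TPM. The HGF receptor gene *Met* (80.2, 194 and 225 TPM), neuregulin, *Nrg1* (19.2, 35.6 and 38.5 TPM), and epigen, *Epgn* (7.23, 21.6 and 24.5 TPM), were lower as well.

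The 20 largest differences in each direction were taken from called genes with at least 10 TPM in replicate 1 (higher) or in both others (lower). Several of these genes had no or hardly any counts on one side. Cysteine dioxygenase, *Cdo1*, was at 227, 0.379 and 0.489 TPM, the largest log2 difference above 0 among them (7.45). The homeobox gene *Lbx1* (chromosome 19, 45308218 to 45309726) was at 90.6 TPM in replicate 1 with no counts in the others, at least 170-fold higher, and at most 0.219 TPM in mSGc. The forkhead gene *Foxf1* was at 20.1, 0 and 0.0514 TPM. *Fendrr*, the long non-coding RNA beside it on chromosome 8, was at 8.18, 0 and 0 TPM, and it is named here after its values were seen. In the other direction *Rps6ka6*, an RSK kinase gene on chromosome X, was at 0, 28.6 and 29.8 TPM, at least 408-fold lower, and at 7.36 to 24.4 TPM in mSGc. The neighbouring chemokine genes *Ppbp* (5.11, 490 and 524 TPM) and *Cxcl5* (0.0709, 28.7 and 36.5 TPM) on chromosome 5 were lower, and so were the cytokine gene *Il24* (1.89, 53.6 and 81.6 TPM), the protease inhibitor *Spink5* (1.38, 63.1 and 46.4 TPM) and the LIM homeobox gene *Isl1* (0.232, 12.7 and 10.8 TPM).

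The remaining genes named by the rule were *Trpm3* (21.5, 0.0541 and 0.0349 TPM), *Slit3* (18.0, 0.0464 and 0 TPM), *Nptx1* (38.4, 0.637 and 0.354 TPM), *Aebp1* (23.8, 0.115 and 0.246 TPM), *Lbp* (103, 3.31 and 0.543 TPM), *Megf10* (16.4, 0.108 and 0.249 TPM), *Ggt1* (44.8, 0.401 and 0.308 TPM) and *Scarf2* (18.7, 0.140 and 0.0756 TPM) in the higher direction. In the lower direction they were *Fndc3c1* (0.0488, 28.4 and 29.8 TPM), *4930461G14Rik* (0.451, 76.6 and 46.1 TPM), *Tmprss11e* (1.45, 45.7 and 51.4 TPM), the costimulatory gene *Cd80* (0.897, 28.1 and 33.6 TPM) and *2810417H13Rik* (9.93, 158 and 152 TPM). For all of them replicates 2 and 3 lay on the same side of replicate 1, as the rule requires.

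**Figure D4:**
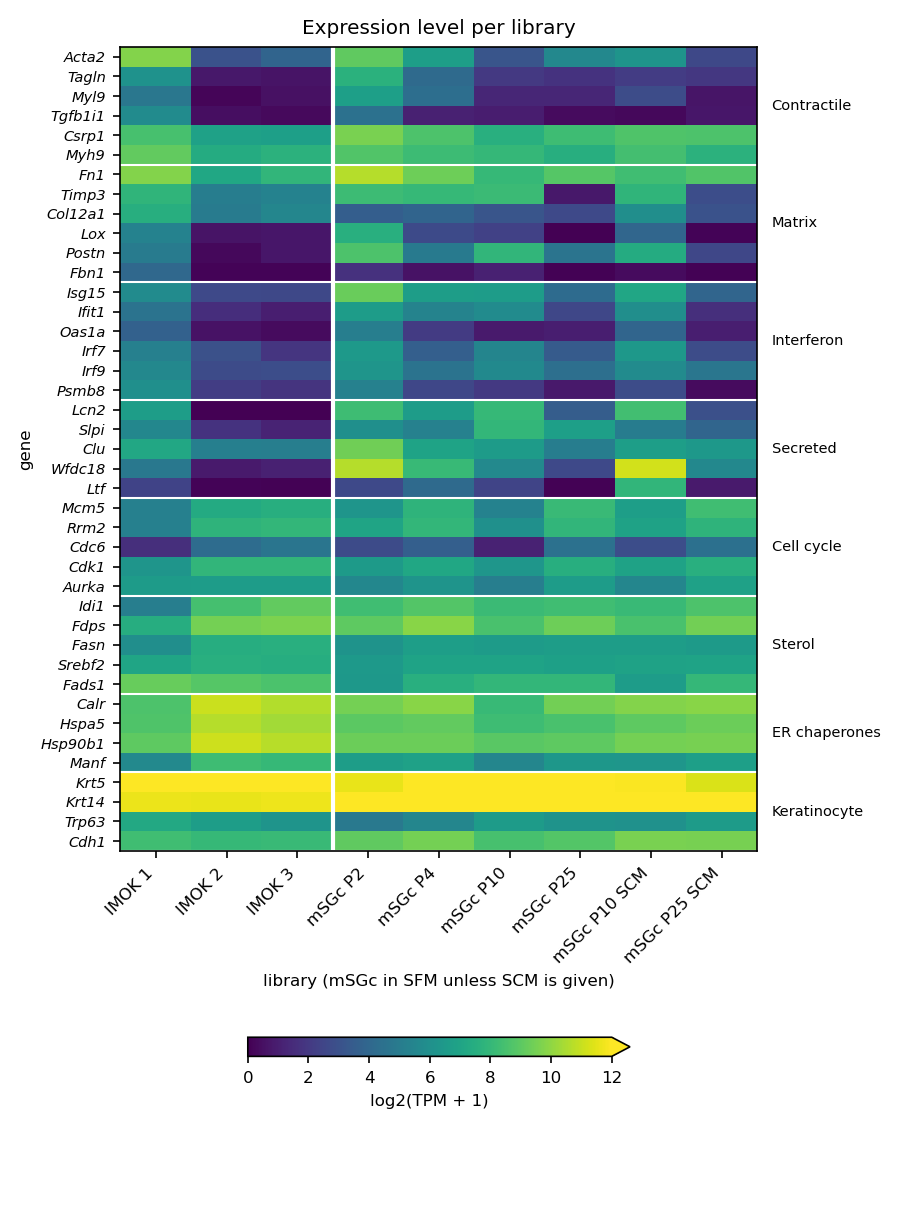
Colours give log2(TPM + 1) of 41 genes in 8 groups (rows) for the 3 IMOK and 6 mSGc libraries (columns), and values above 12 share the brightest colour. *Acta2*, *Lox*, *Postn* and *Lcn2* are brighter in IMOK replicate 1 and in mSGc at P2 than in IMOK replicates 2 and 3, whereas *Mcm5*, *Cdc6* and *Idi1* are darkest in replicate 1 among the IMOK libraries.

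The mSGc libraries, which the contrast did not use, give levels of the same genes elsewhere. Of the higher genes, 1064 reached 1 TPM in an mSGc library, and 37.2% of them had their highest mSGc level at P2, compared with 22.8% of 11649 tested genes. P10 in SFM (24.2%, compared with 17.5%) and P10 in SCM (28.8%, compared with 25.1%) were also above their shares of tested genes. Of the 951 lower genes that reached 1 TPM, 44.7% were highest at P25 in SCM, compared with 18.5% of tested genes. P4 (14.7%, compared with 7.63%) and P25 in SFM (14.7%, compared with 8.48%) were above their shares as well. By list, the median difference between P25 and P2 in SFM was -2.60 for interferon-stimulated genes, -0.97 for contractile and -0.83 for matrix genes, and it was 1.49 for S phase and 1.29 for G2/M genes. Of these lists, those with medians above 0 in replicate 1 fell and those with medians below 0 rose. Sterol (0.61) and glycolysis and hypoxia genes (0.60), below 0 in replicate 1, rose too. Simple epithelium (-2.05), MHC class I (-1.24) and TGF-beta, YAP and TAZ target genes (-1.22), slightly above 0 in replicate 1, fell. Squamous (-0.76), p53 target (-0.61) and cycle control genes (-0.59) went against this, since they fell though their medians in replicate 1 were below 0. Notch and Wnt genes hardly changed, at -0.07. Basal keratinocyte genes, with a median near 0 in replicate 1, rose (0.36). The mSGc libraries are single libraries of another line with no replicates, and they describe where the genes were expressed.

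Differences between replicate 1 and the other IMOK replicates were not spread evenly over chromosomes. Genes on chromosome X had a median log2 difference 0.55 below that of all other genes, and 94 of 377 (24.9%) were lower and 11 (2.92%) higher in replicate 1. Chromosome 13 lay 0.46 below the rest and chromosome 3 lay 0.32 below, with 14.9% and 18.0% of their genes lower. Chromosomes 12 and 2 lay 0.37 and 0.27 above. Between replicates 2 and 3 every chromosome stayed within 0.06 of the rest. *Xist*, the RNA that coats the inactive X chromosome, was at 86.7, 160 and 119 TPM and was not called. DNA copy number was not measured, and its part in the chromosome medians was not tested.

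**Figure D5:**
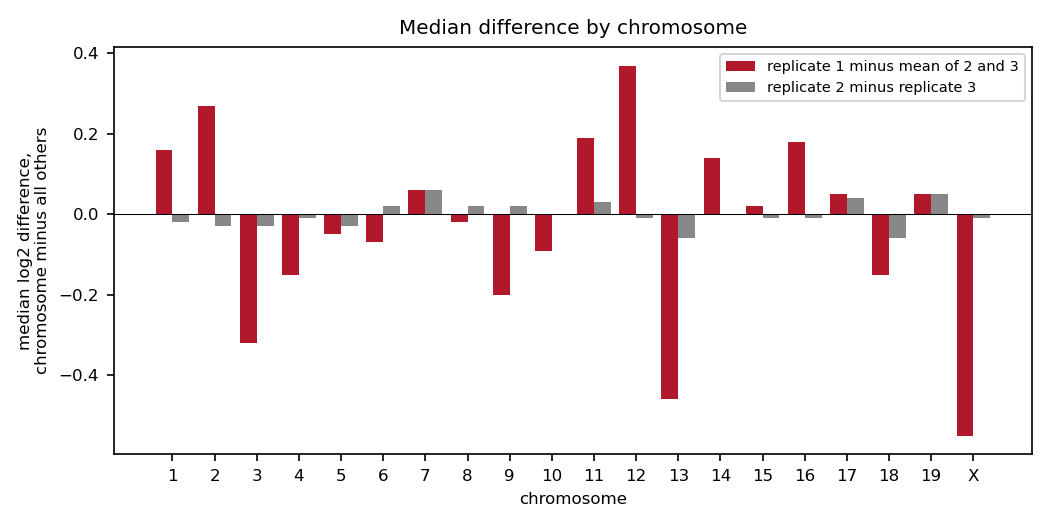
Bars give, for each chromosome, the median log2(CPM + 0.5) difference of its tested genes minus the median of all other tested genes, for replicate 1 against the mean of replicates 2 and 3 (red) and for replicate 2 against replicate 3 (grey). The red bars reach from -0.55 (X) to 0.37 (12), and the grey bars stay within 0.06 of 0.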

How the data were processed

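RNA-seq was available for 3 IMOK and 6 mSGc libraries. Per the labels' processing notes the authors aligned reads to mm9 with TopHat2 2.1.1 and Bowtie2 2.2.6, counted them with featureCounts 1.5.1 and used DESeq2 1.12.4; the annotation, strand setting and handling of multi-mapping reads are not given in the sources used here. The authors deposited raw read counts per gene, without normalization, with gene lengths. Of 23366 entries, 27 carry a date in place of a gene name and held up to 0.243% of the counts. They were kept in the library totals and scaling but left out of the tested genes and lists.

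TPM was computed from counts and lengths. Counts of the IMOK libraries were scaled with TMM factors (edgeR 4.0.16, R 4.3.3) and compared as log2(CPM + 0.5), in Python 3.11.15 (scipy 1.17.1, numpy 2.4.6, pandas 2.3.3). A fold against libraries with no counts was bounded with 3 counts per library. Intervals of folds (95%, exact binomial on pooled counts) and floors cover counting error only, since reads are not molecules. No test across genes was run, because the contrast was chosen on these values and has 1 library on one side. The call rule was first tested on simulated data.

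The contrast, the 23 gene lists and the 11 marker lists, written from general knowledge, were chosen with earlier results of these data known. Every list member could be named, and in each direction the 20 genes with the largest log2 difference among called genes with at least 10 TPM in replicate 1 (higher) or in both others (lower). Alternatives were DESeq2 1.42.0 size factors, library sizes without TMM, no filter, a mean of at least 5 CPM, pseudocounts of 0.1 and 2, folds of 1.5 and 4, the TPM scale, and leaving out replicate 2 or 3. Promoter windows and their coordinates come from RefSeq on GRCm38.p6 and were matched by symbol, and gene coordinates are those of the deposited mm9 tables. Some members of these lists are counted but not reported here by name.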

Additional observations from a re-analysis of the deposited data

How the results depend on the processing

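Counts of called genes and the medians of the gene lists were recomputed under each alternative. Of the counts that describe a comparison, 133 stayed within 1.5 times the value reported and 21 did not. With a mean of at least 5 CPM, 730 genes were higher, with 22 interferon-stimulated and 3 secretory and defence genes among them. At 1.5-fold, 2218 genes were higher and 2265 lower, with 15 contractile genes higher and 2 lower, and 3 matrix and 2 interferon-stimulated genes lower. At 4-fold, 424 genes were higher and 196 lower, with 0 contractile genes lower, 13 matrix genes higher, 18 S phase genes lower and 1 G2/M gene lower. On the TPM scale 638 genes were lower, and on that scale and with library sizes 0 contractile genes were lower. Leaving out replicate 2 or replicate 3, 1338 to 1845 genes were higher and 1152 to 1478 lower, matrix genes lower ranged from 0 to 2, and interferon-stimulated genes lower were 1 in both cases. Without replicate 1 there is no comparison. For several lists the median absolute difference between replicates 2 and 3 was at least as large as the list median. It was 0.37 for targets of TGF-beta, YAP and TAZ, 0.35 for cycle control and 0.26 for secretory and defence genes. It was 0.37 for simple epithelium, 0.46 for cytokine and 0.33 for p53 target genes. Medians near 0 changed sign: basal keratinocyte genes to 0.178 (library sizes), 0.222 (TPM scale) and 0.011 (without replicate 2 and without replicate 3), cycle control genes to 0.091, 0.134 and, without replicate 2, 0.127 (-0.04 without replicate 3), squamous genes to 0.154, 0.181, 0.048 (no filter) and, without replicate 2, 0.125 (-0.097 without replicate 3), and glycolysis and hypoxia genes to 0.143 without replicate 2 (-0.669 without replicate 3). With library sizes and on the TPM scale small medians kept their sign but moved by over 1.5 times, among them interferon signalling (0.555 and 0.595), MHC class I (0.498 and 0.543), secretory and defence (0.396 and 0.440), growth factor (0.513 and 0.534) and protein folding genes (-0.326 and -0.281). The cause was not tested, except that TPM and library sizes shift all genes alike. No paired analysis was possible because the groups share no replicate numbers with a second group and the contrast lies within IMOK.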

Other observations

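Of 16 genes of simple and ductal epithelium 14 passed the filter, 3 (21.4%) were higher and 1 (7.14%) lower, beside 10.2% and 8.34% of all tested genes, with a median log2 difference of 0.30 (0.16 without replicate 2). *Krt18* was at 1520, 365 and 495 TPM in replicates 1, 2 and 3 and was higher, while its partner *Krt8* was at 1300, 659 and 816 TPM and was not called. *Krt23* (25.9, 1.21 and 0.486 TPM) and *Prom1*, an apical membrane protein (44.5, 2.37 and 2.1 TPM), were higher, and the surface sialoglycoprotein gene *Cd24a* was lower (402, 1030 and 928 TPM). In the squamous list 26 of 55 genes passed, 2 (7.69%) were higher and 3 (11.5%) lower, near the shares of all tested genes, and the median was -0.01. The stress keratins *Krt6b* and *Krt16* (23.9, 7.64 and 9.41 TPM) were higher, and *Sprr1b* (0, 27.0 and 14.1 TPM), *Serpinb2* (2.41, 18.6 and 19.1 TPM) and *Spink5* were lower.

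Of 36 listed cytokine genes 21 passed, and 4 (19.0%) were higher and 4 (19.0%) lower, beside 10.2% and 8.34% of all tested genes, with a median of 0.33 (0.19 with a pseudocount of 2, 0.09 without the filter). *Cxcl14* (122, 20.4 and 22.1 TPM), *Cxcl12* (6.37, 0.0162 and 0.0871 TPM), *Cx3cl1* (64.5, 23.8 and 15.8 TPM) and *Tslp* (111, 25.3 and 33.3 TPM) were higher, and the neutrophil attractants *Cxcl3* (0.811, 6.18 and 8.62 TPM) and *Cxcl5*, the interleukin 23 subunit gene *Il23a* (3.54, 39.7 and 46.9 TPM) and *Il24* were lower. Of 25 immediate early and stress genes that passed, 2 (8.0%) were higher and 3 (12.0%) lower, near the shares of all tested genes (median 0.25). *Hspa8*, the constitutive HSP70, was lower (1480, 2940 and 4420 TPM), and *Fos* was higher (23.6, 9.42 and 6.79 TPM). Of 24 p53 target genes that passed, 3 (12.5%) were higher and 1 (4.17%) lower, near or under those shares (median -0.32), and *Mdm2* was at 47.4, 48.0 and 48.7 TPM. Of 23 glucocorticoid and retinoid genes that passed, 6 (26.1%) were higher and 0 lower, beside 10.2% and 8.34% (median 0.43), among them *Mt2* (298, 79.7 and 78.8 TPM) and *Rdh10* (81.2, 20.2 and 20.9 TPM).

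Glycolysis and hypoxia genes differed between replicates 2 and 3 as well. Of 27 that passed (30 listed), 5 (18.5%) were lower and 2 (7.41%) higher in replicate 1, beside 8.34% and 10.2% of all tested genes, with a median of -0.39. The glycolytic genes *Pgk1* (359, 1090 and 1040 TPM) and *Ldha* (562, 1150 and 1090 TPM) were lower in replicate 1. The hypoxia genes *Bnip3* (37.6, 66.2 and 7.81 TPM), *Ndrg1* (72.6, 99.2 and 28.7 TPM), *Aldoc* (43.3, 39.0 and 9.02 TPM) and *Ankrd37* (2.34, 11.2 and 1.38 TPM) were instead lowest in replicate 3 and were not called. *Sprr1a*, a cornified envelope gene, had the same order as *Aldoc* (132, 108 and 13.4 TPM).

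Beside the 48 genes near 0 in replicate 1, 49 genes had at most 3 counts in each of replicates 2 and 3 and at least 30 in replicate 1. Of these 49, 25 reached 1 TPM in an mSGc library, a smaller share than the 11649 of all 12129 tested genes. The 49 were picked for low counts in replicates 2 and 3, so the smaller share may follow from that choice. The imprinted gene *Peg3* was at 4.89, 0.0175 and 0.0377 TPM, and at 4.19 to 43.0 TPM in mSGc. Of the 48 genes, 11 are on chromosome X, among them *Tmem47* (0, 8.24 and 9.17 TPM). That chromosome held 377 of the 12129 tested genes and 94 of the 1012 lower genes. Both sets were defined after the values were seen.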
